A study of Mus musculus with 22 samples.

Results

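Broad H3K27ac domains are the longest stretches of mouse liver chromatin in which histone H3 acetylated at lysine 27 (H3K27ac) was called as 1 unbroken interval. They were taken from the authors' union of the H3K27ac peaks of both diets by length alone, as every interval of 10000 bp or longer, and 744 of the 11235 union peaks met that rule. Livers came from wild type C57BL/6J mice killed at the age of 24 weeks after a night without food, and frozen tissue was powdered before library construction. Chow livers (3 H3K27ac libraries) came from mice that ate standard chow throughout. High-fat-diet livers (3 H3K27ac libraries) came from mice moved to the high-fat diet S3282 at 8 weeks and kept on it for 16 weeks. Each diet also had 3 libraries of H3 monomethylated at lysine 4 (H3K4me1), 3 mRNA libraries and a pooled IgG control, and chow livers had 2 libraries of H3 trimethylated at lysine 4 (H3K4me3). Sex is not given in the labels used here, and the labels do not say that equal replicate numbers stand for 1 animal.

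H3K27ac is written by the acetyltransferases p300 and CBP and sits on nucleosomes beside active promoters and enhancers. H3K4me1 marks enhancers, whether acetylated or not, and H3K4me3 marks promoters that are in use. Long unbroken stretches of H3K27ac often join a promoter with several enhancers near it, and in many tissues such stretches lie at genes that define the cell type. In liver, diets rich in fat are known to change the expression of lipid metabolism genes.

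The domains ran from 10001 to 44991 bp, with a median of 12418 bp and quartiles of 10958.5 and 15092.75 bp. By length, 320 were shorter than 12000 bp, 234 were from 12000 up to 15000 bp, 125 were from 15000 up to 20000 bp and 65 were 20000 bp or longer. Together they covered 10352699 bp, which was 19.8% of the bases in union peaks. They held 21.4% ± 0.354 of the counts in union peaks in chow and 21.7% ± 0.245 on the high-fat diet (SD, n = 3 libraries each). These shares differed by less than the sum of the 2 SDs. Domains lay on all 19 autosomes, while none of the 99 union peaks of the X chromosome was this long. Chromosome 15 had the highest share of its union peaks at this length (48 domains, 9.8%), and chromosome 11 had the most domains (78). Many lay close together: 297 had another domain within 50000 bp and 139 within 10000 bp, and the median gap to the nearest other domain was 113839 bp.

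A domain is an interval of the union, so its length can come from either diet or from both. The union peaks equal the merged peaks of the 2 deposited lists, 1 called on the pooled chow libraries and 1 on the pooled high-fat-diet libraries. A single peak of 1 diet was itself 10000 bp or longer in 708 of the 744 domains (95.2%), and the other 36 reached that length only by joining shorter peaks. Peaks of both lists met in 500 domains, while 148 held a peak of the chow list only and 96 a peak of the high-fat-diet list only. A peak of the chow list reached 10000 bp in 534 domains, a peak of the high-fat-diet list in 415, and both did in 241. Peaks of the chow list covered a median of 11424 bp of a domain and those of the high-fat-diet list 10664.5 bp. The lists come from pools of unequal depth (74496903 chow tags and 62948328 high-fat-diet tags), so these lengths are not a measured change of the domains, and peak calling has no replicates.

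Absence from 1 list did not mean absence of signal. Of the domains with no peak in the high-fat-diet list, the one with the highest level was chr2:167658302-167695951 (mm9, 37650 bp). Its H3K27ac level was 1403 ± 86.3 counts per 1000000 (CPM, counts scaled to 1000000 counts in union peaks) in chow and 1358 ± 73.0 CPM on the high-fat diet (SD, n = 3 each). The reverse case was chr17:28637111-28663650 (26540 bp), which had no peak in the chow list, with 783 ± 67.6 CPM in chow and 818 ± 7.76 CPM on the high-fat diet. Neither difference passed the test described below. By the authors' false discovery rate, 8 of the 709 chow peaks in domains (1.13%) and 70 of the 8942 elsewhere (0.783%) had a rate of 1% or lower. In the high-fat-diet list 9 of 677 (1.33%) and 38 of 6175 (0.615%) did. The authors' score, a multiple of the negative log10 of the peak p-value, had a median of 2772 in domains and 1748 elsewhere in the chow list. The authors' fold enrichment over local background had medians of 10.3 and 10.6.

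Both H3K4 marks were common over the domains. An H3K4me1 peak overlapped 702 of the 744 domains (94.4%), against 87.3% of the union peaks of 5000 up to 10000 bp and 53.0% of those under 5000 bp. An H3K4me3 peak of chow liver overlapped 428 (57.5%), against 46.5% and 62.7% in the 2 shorter classes. A longer interval has more room for an overlap, so these shares describe what the domains contain and do not compare density. Both marks met in 395 domains, H3K4me1 alone in 307, H3K4me3 alone in 33, and neither in 9. H3K4me1 peaks covered a median of 83.9% of a domain. H3K4me3 peaks, where present, covered a median of 30.6%, so the promoter mark took up a minor stretch of a domain that H3K4me1 mostly filled. More than 1 H3K4me3 peak lay in 96 domains and more than 1 H3K4me1 peak in 254.

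**Figure D1:**
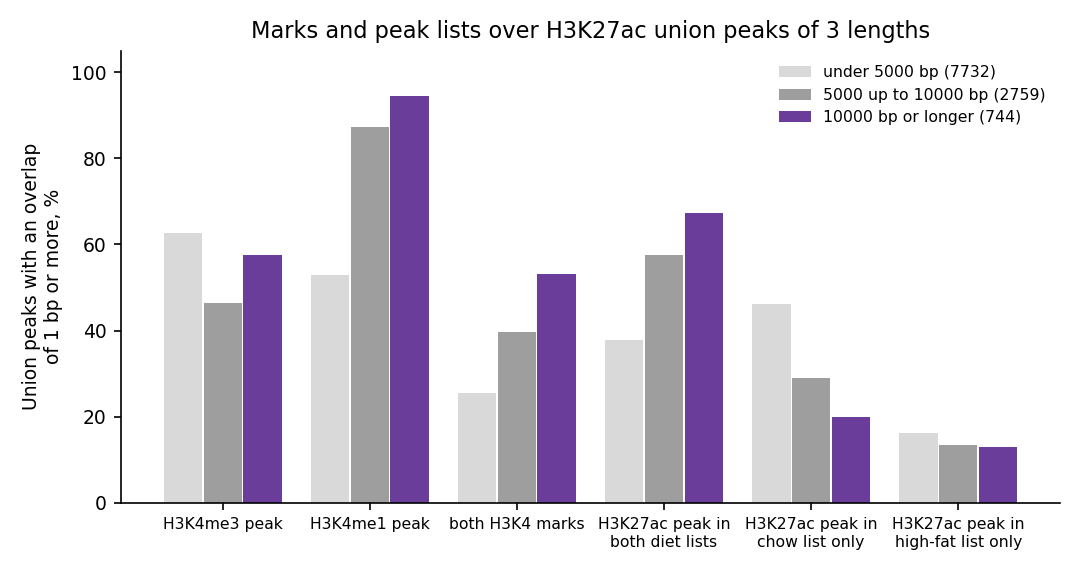
Share of H3K27ac union peaks (%, y axis) that overlap an H3K4me3 peak, an H3K4me1 peak, both, or H3K27ac peaks of 1 or both diet lists (x axis), for 7732 peaks under 5000 bp, 2759 of 5000 up to 10000 bp and 744 of 10000 bp or longer. Domains have the highest share with H3K4me1 (94.4%) and with a peak in both diet lists (67.2%).

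The share of domains with H3K4me3 went from 52.2% below 12000 bp to 60.7%, 62.4% and 63.1% in the 3 longer bins. In 340 domains (45.7%) the highest H3K27ac summit lay inside an H3K4me3 peak. The median distance from it to the nearest H3K4me3 summit of the same domain was 622 bp. The 538 H3K4me3 peaks inside domains had a median length of 3119.5 bp, against 1988 bp for the 12527 elsewhere. Their median tag density was 535 per kb, against 605 per kb elsewhere, so they were longer and not denser. No gene names are given to domains, since an annotation of the build of the files was not used here.

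Broad domains were not much denser than shorter peaks. The H3K27ac level per kb had a median of 19.9 CPM per kb over the domains, from 11.1 to 36.9, against 18.8 CPM per kb over all union peaks. It was 17.5 CPM per kb in union peaks of 5000 up to 10000 bp and 19.5 CPM per kb in those under 5000 bp. Within the domains the median went from 19.1 CPM per kb below 12000 bp to 23.0 CPM per kb at 20000 bp and longer. The domains' length thus gave them more counts: the median domain held 991 counts per library, against 268 for the median union peak.

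The widest domain, chr4:150139341-150184331 (44991 bp), had 964, 996 and 1012 CPM in chow replicates 1 to 3 and 872, 947 and 904 CPM in high-fat-diet replicates 1 to 3. All 3 high-fat-diet libraries lay below all 3 chow libraries, yet the log2 fold change of −0.12 (SE 0.0654) did not pass (adjusted p = 0.406, edgeR quasi-likelihood test). The next in length were chr14:32204481-32243216 (38736 bp, log2 fold change 0.03), chr7:71039258-71077101 (37844 bp, 0.06), chr2:167658302-167695951 (37650 bp, −0.04) and chr1:93322352-93357846 (35495 bp, −0.10). None of these 5 passed the test. H3K4me3 was absent from chr4:150139341-150184331, chr14:32204481-32243216 and chr2:167658302-167695951.

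The densest domain was chr14:69876669-69904662 (27994 bp), at 36.9 CPM per kb. Its levels were 1051, 1061 and 1010 CPM in chow and 1066, 989 and 1021 CPM on the high-fat diet, and the diets overlapped. Next came chr2:167658302-167695951 at 36.7 CPM per kb, which was also among the widest and carried H3K4me1 over 99.5% of its length. The level of that domain was 1339, 1501 and 1369 CPM in chow and 1277, 1419 and 1377 CPM on the high-fat diet. After it came chr5:143571633-143588111 (16479 bp, 34.9 CPM per kb), where H3K4me3 covered 72.0% of the domain. None of the 3 differed between diets past the threshold.

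At the length limit the levels of domains and of peaks left out overlapped. The shortest members were chr15:78294713-78304713 (10001 bp, 256 CPM in chow and 240 CPM on the high-fat diet) and chr12:106990084-107000086 (10003 bp, 178 and 165 CPM). The longest union peaks left out were chr2:172965677-172975672 (9996 bp, 282 and 242 CPM) and chr11:121372562-121382557 (9996 bp, 200 and 198 CPM).

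Totals in union peaks ran from 2037101 to 5772962 for H3K27ac and from 5487592 to 7380206 for H3K4me1. The H3K27ac library of high-fat-diet replicate 1 had the lowest total and stood apart over the domains. Across domains its log2 levels had Pearson correlations of 0.896 to 0.949 with the other 5 libraries, which had 0.953 to 0.985 among themselves, and the first principal component set it apart (56% of the variance, score 4.46 against −2.15 to 1.06). That component also placed all high-fat-diet libraries (−0.02 to 4.46) above all chow libraries (−2.15 to −1.21). For H3K4me1 peaks in domains the first component set high-fat-diet replicate 1 apart (38.6%, score 5.16 against −1.55 to −0.51). On that component high-fat-diet replicates 2 and 3 (−1.32 and −1.55) lay below all chow libraries (−0.96 to −0.51), on the side opposite to replicate 1. The second component (34.9%) placed all high-fat-diet libraries (0.54 to 3.95, replicate 2 the highest) above all chow libraries (−2.48 to −1.01). Defining hepatocyte genes were all detected, with a summed mRNA level of 78212 to 87482 CPM in chow and 84373 to 96306 CPM on the high-fat diet. Summed promoter H3K27ac of the 5 macrophage marker genes in the table (of 6 listed) was 95.1 to 115 CPM in chow and 128 to 184 CPM on the high-fat diet, while the same genes' mRNA overlapped (152 to 290 and 190 to 393 CPM). For 6 lymphocyte marker genes it was 91.7 to 106 and 113 to 184 CPM, and for 6 hepatocyte marker genes 292 to 311 and 210 to 275 CPM. For 4 endothelial marker genes it was 118 to 121 and 104 to 112 CPM, and for stellate, cholangiocyte and pancreatic acinar marker genes the diets overlapped. No marker gene found in the tables was at 0 in all libraries. The part of these differences in the results below was not tested, and in bulk liver more cells carrying a mark and more mark per cell cannot be told apart.

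The diets were compared over all 11235 union peaks with edgeR's quasi-likelihood test, as high-fat diet against chow, with Benjamini-Hochberg adjusted p under 0.05 as the threshold. On the high-fat diet 31 broad domains rose, 3 fell and 710 did not pass. That is 4.57% of the domains, against 1.91% of all union peaks (1.2% higher and 0.712% lower), 3.44% of those of 5000 up to 10000 bp (61 rose, 34 fell) and 1.11% of those under 5000 bp (43 rose, 43 fell). Longer peaks hold more counts and thus had smaller standard errors (median SE 0.0769 in domains and 0.0995 over all peaks), so shares of calls are not comparable across lengths as shares of regions affected. The median log2 fold change was 0.0349 over the domains and −0.0068 over all union peaks. Log2 fold changes were positive in 444 domains and negative in 300, and ran from −0.36 to 0.84. Union peaks of 5000 up to 10000 bp also leaned upward, with 1534 positive, 1225 negative and a median of 0.0195. Over all union peaks 5381 were positive and 5854 negative. When library scaling was instead computed from the broad domains themselves, 20 rose and 5 fell (79 and 112 over all union peaks). The domains' median was then −0.000172, but this scaling centers the domains' own log2 fold changes, so a median near 0 is fixed by it.

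**Figure D2:**
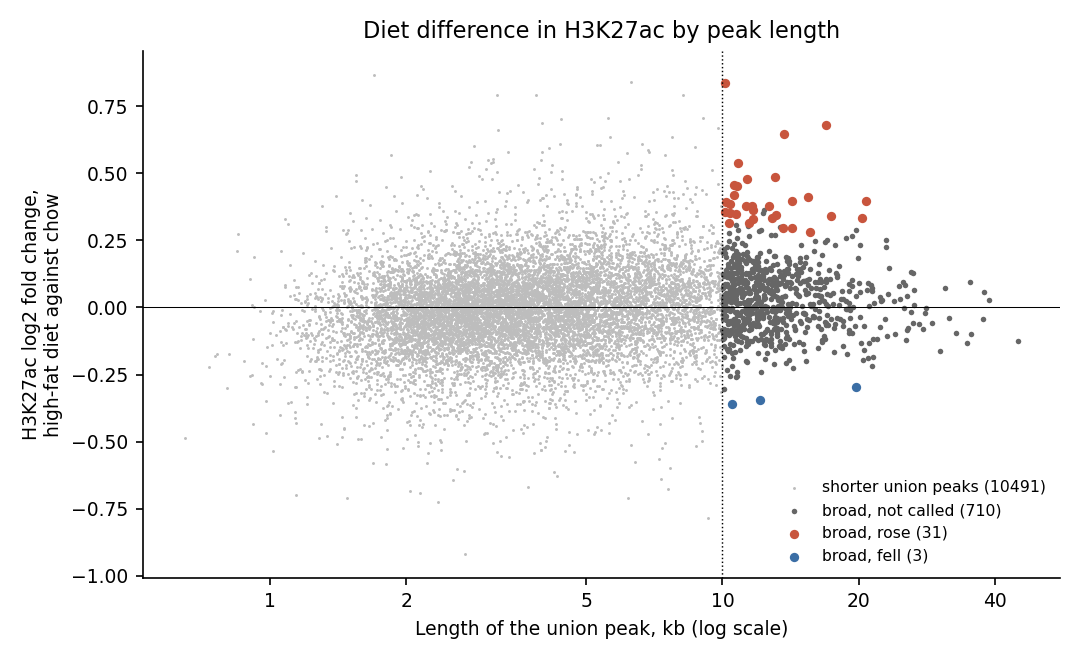
H3K27ac log2 fold change, high-fat diet against chow (y axis), against the length of each of the 11235 union peaks in kb (log scale, x axis), with the 10 kb limit as a dotted line. The 31 domains that rose (red) and the 3 that fell (blue) lie among 710 domains that did not pass (dark grey). The longest domain that rose has 20793 bp.

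In 141 domains (19.0%) all 3 high-fat-diet libraries lay above all 3 chow libraries, as in 9.5% of all union peaks, and in 47 (6.32%) all 3 lay below, as in 9.82% of all union peaks. Together these are 25.3% of the domains, against 19.3% of all union peaks and 25.3% of those of 5000 up to 10000 bp. In that next length class 14.7% lay above and 10.6% below.

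The largest increase was at chr9:21470393-21480546 (10154 bp). Its H3K27ac level was 99.2, 86.9 and 80.0 CPM in chow replicates 1 to 3 and 141, 164 and 166 CPM in high-fat-diet replicates 1 to 3. The high-fat-diet libraries were all above the chow libraries, with replicate 1 the lowest of the 3. The rise was 1.78-fold (log2 fold change 0.84, SE 0.0944, adjusted p = 4.2e-05). This domain is among the 9 without an H3K4me1 or H3K4me3 peak, and only the high-fat-diet list has a peak in it. At 12.1 CPM per kb it was also the least dense of the domains under 12000 bp.

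Next was chr1:74143822-74160719 (16898 bp), with 211, 174 and 166 CPM in chow and 249, 309 and 317 CPM on the high-fat diet. The groups did not overlap, and it rose 1.60-fold (log2 0.68, SE 0.0950, adjusted p = 0.000534). It carries 2 H3K4me1 peaks over 49.3% of its length and no H3K4me3 peak. A second domain of chromosome 1, chr1:156902237-156915917 (13681 bp), had 179, 194 and 178 CPM in chow and 344, 267 and 257 CPM on the high-fat diet. It rose 1.56-fold (log2 0.64, SE 0.0922, adjusted p = 0.000648), with replicate 1 the highest. Like the chromosome 9 domain it has neither H3K4 mark, so these are the 2 called domains among the 9 without one.

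In chr11:75372798-75383623 (10826 bp) the chow libraries had 135, 138 and 123 CPM and the high-fat-diet libraries 227, 159 and 194 CPM. The rise was 1.45-fold (log2 0.54, SE 0.100, adjusted p = 0.00636). H3K4me1 covered 95.6% of this domain and no H3K4me3 peak lay in it. In chr7:150933369-150946435 (13067 bp) the levels were 203, 187 and 177 CPM in chow and 225, 284 and 279 CPM on the high-fat diet, a rise of 0.49 on the log2 scale (SE 0.0872, adjusted p = 0.0047). That was the largest rise among the domains with an H3K4me3 peak, which covered 12.7% of it.

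In the remaining 3 of the 8 largest increases without overlap of libraries, high-fat-diet replicate 1 was above replicates 2 and 3. In chr12:104569555-104580879 (11325 bp) the chow libraries had 117, 141 and 125 CPM and the high-fat-diet libraries 208, 158 and 170 CPM (1.39-fold, adjusted p = 0.0106). In chr13:55543788-55554527 (10740 bp) they had 139, 133 and 130 CPM and 216, 164 and 177 CPM (1.37-fold, adjusted p = 0.0106). In chr5:143685087-143695694 (10608 bp) they had 154, 164 and 157 CPM and 270, 170 and 207 CPM (1.34-fold, adjusted p = 0.0492). In each of the 3 the lowest high-fat-diet library was above the highest chow library. Without high-fat-diet replicate 1 the log2 fold change of the chromosome 5 domain went from 0.42 to 0.25 and no longer passed. This domain also did not pass without any 1 of the chow replicates, without high-fat-diet replicate 3 or with scaling to total counts or from the domains alone. With single libraries left out in turn, chr9:21470393-21480546, chr1:74143822-74160719 and chr1:156902237-156915917 passed each time. The chromosome 11 and chromosome 7 domains did not pass without chow replicate 3, the chromosome 12 domain without chow replicate 1 or 3, and the chromosome 13 domain without any 1 of the chow replicates.

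**Figure D3:**
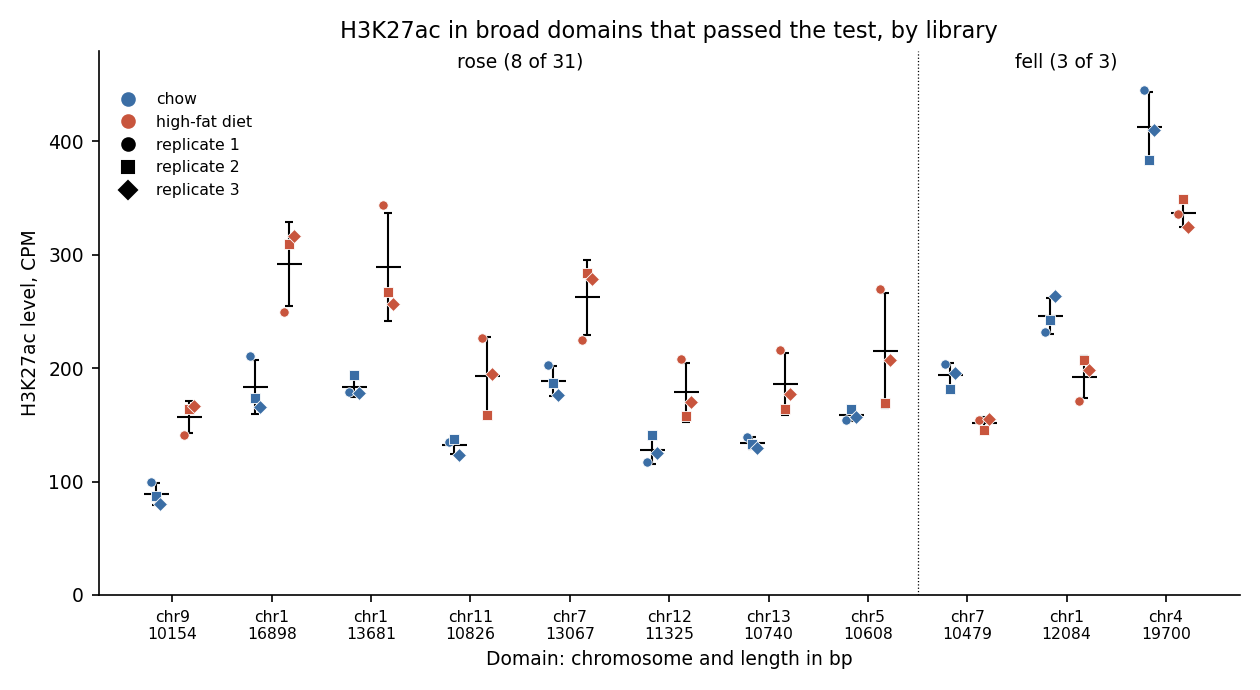
H3K27ac level in CPM (y axis) of the 8 domains with the largest increase among those whose libraries did not overlap and of the 3 that fell (x axis, named by chromosome and length in bp), with 1 point per library and bars for the mean and SD of 3 libraries. In each of the 11 all points of 1 diet lie above all points of the other.

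The other 23 domains that rose had log2 fold changes from 0.28 to 0.46 (1.21-fold to 1.37-fold) and adjusted p from 0.007 to 0.0468. They were 10141 to 20793 bp long. Domains that rose lay on 15 of the 19 chromosomes with domains, and chromosomes 9 and 11 had the most, 4 each. In 10 of the 31 another domain lay within 50000 bp. Libraries of the diets overlapped in 1 of the 31, chr9:121220865-121231458 (10594 bp), which had the log2 fold change of 0.46. Its levels were 113, 132 and 115 CPM in chow and 210, 128 and 164 CPM on the high-fat diet. Another of the 23 is chr6:90694879-90715671 (20793 bp), with 277, 309 and 273 CPM in chow and 404, 362 and 364 CPM on the high-fat diet (1.32-fold, adjusted p = 0.007). It was the longest domain that rose, and it is named because an H3K4me1 peak in it also rose.

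Only 3 domains fell. In chr7:52514306-52524784 (10479 bp) the chow libraries had 204, 182 and 196 CPM and the high-fat-diet libraries 154, 146 and 155 CPM. It was 1.28-fold lower (log2 fold change −0.36, SE 0.0787, adjusted p = 0.0167), and only the chow list has a peak in it. In chr1:72215884-72227967 (12084 bp) the levels were 232, 243 and 263 CPM and 171, 207 and 198 CPM, 1.27-fold lower (log2 −0.35, SE 0.0824, adjusted p = 0.028). In chr4:149161840-149181539 (19700 bp) they were 445, 383 and 410 CPM and 336, 349 and 325 CPM, 1.23-fold lower (log2 −0.30, SE 0.0735, adjusted p = 0.0357). All 3 carry H3K4me1 and none carries H3K4me3. None of the 3 passed when chow replicate 1, chow replicate 3 or high-fat-diet replicate 3 was left out.

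Among length bins, 17 of the 320 domains below 12000 bp rose and 1 fell, 8 of 234 from 12000 up to 15000 bp rose and 1 fell, 4 of 125 from 15000 up to 20000 bp rose and 1 fell, and 2 of 65 at 20000 bp or longer rose and none fell. In the longest bin 10 of 65 domains had an unadjusted p under 0.05, and its median log2 fold change was −0.000291. Of the 428 domains with H3K4me3, 9 rose and none fell (61 had an unadjusted p under 0.05). Of the 316 without it, 22 rose and 3 fell (75 had an unadjusted p under 0.05). Over all 744 domains 136 had an unadjusted p under 0.05, and over all 11235 union peaks 1577 did. Median log2 fold changes were 0.0392 with H3K4me3 and 0.0296 without, so the difference in counts was not accompanied by a higher median without the mark. That difference in counts was not tested.

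The peak lists sorted the calls. Of the 96 domains with a peak in the high-fat-diet list only, 15 rose and none fell (15.6%), with a median log2 fold change of 0.125. Of the 148 with a peak in the chow list only, 1 rose and 1 fell, with a median of 0.0126. Of the 500 with peaks of both lists, 15 rose and 2 fell, with a median of 0.0286. The lists were made from the same libraries as the counts, so this sorting is a description and no support for the calls. In 81 of the 96 domains seen in the high-fat-diet list only, the counts did not differ past the threshold.

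Single libraries weighed heavily on the calls. High-fat-diet replicate 1 was the highest of the 6 libraries in 22 of the 31 domains that rose, and chow replicate 1 was the lowest in 20. Relative to the mean of a domain, the median log2 level in the 31 was −0.247, −0.118 and −0.221 in chow replicates 1 to 3 and 0.28, 0.101 and 0.171 in high-fat-diet replicates 1 to 3. These 31 were chosen for being higher on the high-fat diet, so the order of these medians between diets is fixed by that choice. Without high-fat-diet replicate 1, 38 domains rose, 29 of them among the 31, and 4 fell, including the 3. The median SD of log2 CPM over the domains was 0.0704 in chow, 0.0877 on the high-fat diet and 0.0445 on the high-fat diet without replicate 1. The last value rests on 2 libraries instead of 3. A median SD tends to be lower with fewer libraries, so it is not directly comparable with the others. Leaving out high-fat-diet replicate 2 gave 51 that rose and 6 that fell, and leaving out chow replicate 2 gave 14 and 1. The number that rose was 10 with high-fat-diet replicate 3 left out, 5 with chow replicate 1 left out and 3 with chow replicate 3 left out. Calls over all 11235 union peaks moved too, from 135 higher and 80 lower with every library. They were 166 and 95 without high-fat-diet replicate 1, 270 and 172 without replicate 2 and 46 and 29 without replicate 3. Without chow replicates 1 to 3 in turn they were 21 and 25, 65 and 46, and 21 and 23.

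**Figure D4:**
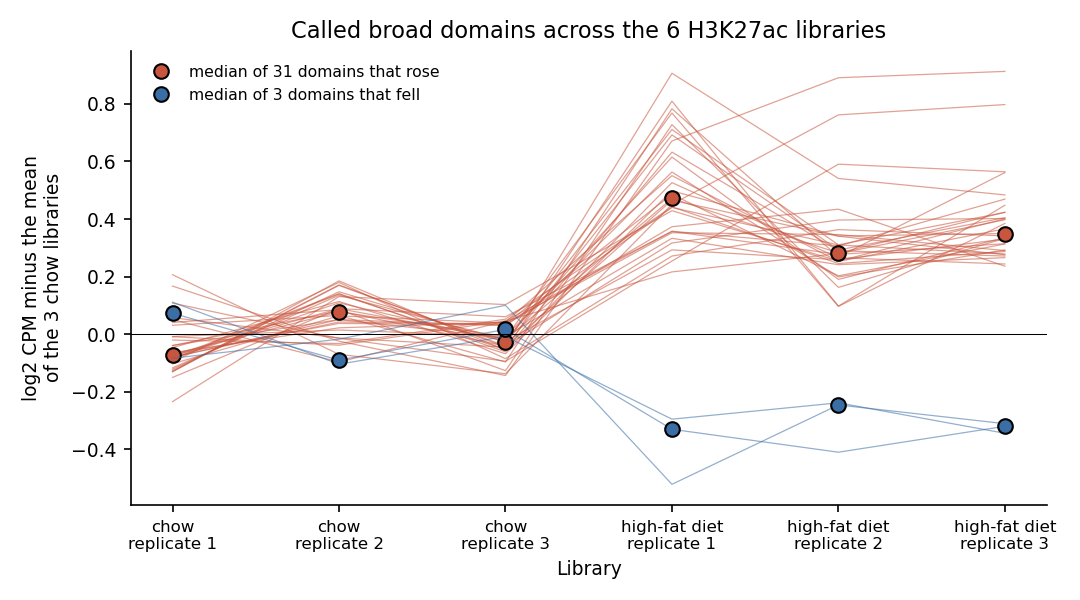
Log2 CPM minus the mean of the 3 chow libraries (y axis) in each of the 6 H3K27ac libraries (x axis), with 1 line per domain that rose (31, red) or fell (3, blue) and points for their medians. High-fat-diet replicate 1 is the highest library in 22 of the 31 domains that rose, and replicates 2 and 3 lie above the chow mean in all 31.

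H3K4me1 was measured in separate libraries and was not used to choose the domains. Of the 1015 H3K4me1 union peaks that overlap a domain, 3 rose (0.296%) and 8 fell (0.788%). Over all 16834 H3K4me1 union peaks the shares were 0.683% higher and 0.879% lower (1.56% in all). Over the 7811 H3K4me1 peaks that overlap any H3K27ac union peak they were 0.768% and 0.512%, so the share that fell in domains was below the first background and above the second. The median log2 fold change was 0.0121 in the domains and 0.0342 over those 7811 peaks.

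The 3 H3K4me1 peaks that rose lie in 2 domains, and H3K27ac rose in both. In chr1:74143822-74160719 the peak chr1:74151887-74156787 had 67.6, 63.5 and 63.9 CPM in chow and 72.2, 87.8 and 106 CPM on the high-fat diet (1.37-fold, adjusted p = 0.032). In the same domain the peak chr1:74157055-74160492 had 53.4, 50.0 and 42.8 CPM in chow and 54.2, 83.4 and 83.6 CPM on the high-fat diet (1.52-fold, adjusted p = 0.0127). In chr6:90694879-90715671 the peak chr6:90699596-90702320 had 42.9, 35.5 and 38.8 CPM in chow and 60.0, 57.6 and 50.7 CPM on the high-fat diet (1.44-fold, adjusted p = 0.0128). The diets did not overlap in any of the 3, but in both chromosome 1 peaks high-fat-diet replicate 1 was close to chow.

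The 8 H3K4me1 peaks that fell lie in domains whose H3K27ac did not pass. The largest decrease was at chr17:28559713-28562568, with 31.0, 30.1 and 29.1 CPM in chow and 21.5, 18.9 and 20.9 CPM on the high-fat diet (1.48-fold lower, adjusted p = 0.0205). The domain around it, chr17:28555304-28568174 (12871 bp), had an H3K27ac log2 fold change of −0.01. A stronger peak, chr7:52960367-52969381, had 263, 238 and 232 CPM in chow and 205, 168 and 182 CPM on the high-fat diet (1.32-fold lower, adjusted p = 0.00677). Its domain, chr7:52954646-52975523 (20878 bp), had an H3K27ac log2 fold change of 0.06, with the sign opposite to H3K4me1. The H3K27ac log2 fold changes of the 8 domains ran from −0.13 to 0.06.

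The H3K4me1 calls also changed with single libraries. Without H3K4me1 high-fat-diet replicate 1, 55 peaks in domains rose (5.42%) and 51 fell (5.02%), and these counts include all 3 and all 8 named above. Over all H3K4me1 peaks the shares without that library were 5.42% and 6.67%. Of the 37 H3K4me1 peaks in the domains where H3K27ac rose, 7 then rose and 2 fell. Of the 4 in the domains where H3K27ac fell, 2 then rose and none fell. Without chow replicate 2 or without chow replicate 3 no H3K4me1 peak in a domain rose, and 1 fell in each case. Without chow replicate 1 none fell, and without high-fat-diet replicate 2 1 rose and 1 fell.

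Over the 702 domains with an H3K4me1 peak, the log2 fold change of H3K27ac and that of the H3K4me1 peak sharing most bases had a Pearson r of 0.236 and a Spearman rho of 0.227. This correlation is across domains, which share libraries and are not independent replicates. Both marks had the same sign in 407 domains (both higher in 238, both lower in 169). Signs were opposite in the other 295 (H3K27ac higher and H3K4me1 lower in 181, the reverse in 114). Of the 31 domains where H3K27ac rose, 29 have an H3K4me1 peak. Its log2 fold change was positive in 24 of the 29, with a median of 0.0779, and passed in 1. In the 3 domains where H3K27ac fell, H3K4me1 log2 fold changes were −0.03, 0.10 and 0.15, and none passed.

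**Figure D5:**
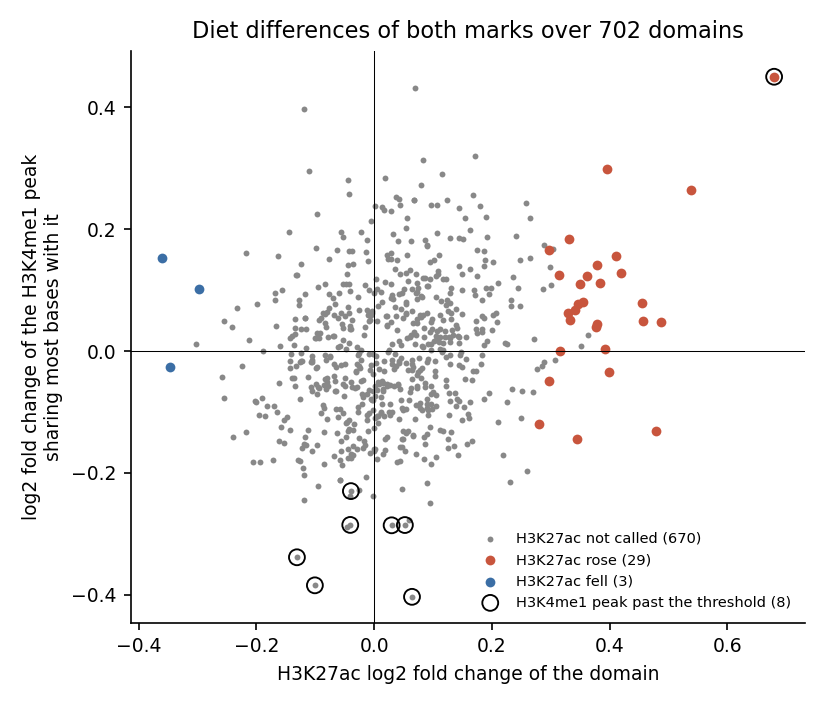
Log2 fold change of the H3K4me1 peak sharing most bases with a domain (y axis) against the H3K27ac log2 fold change of that domain (x axis), high-fat diet against chow, for 702 domains. Of the 29 domains in red, where H3K27ac rose, 24 lie above 0 for H3K4me1, and circles mark H3K4me1 peaks past the threshold. Among all domains with a positive H3K27ac log2 fold change, 238 lie above 0 for H3K4me1 and 181 below.

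The authors' deposited table of H3K27ac union peaks, at its own adjusted p under 0.05, gives 34 of 744 domains as higher and 4 as lower. Over all 11235 union peaks it gives 123 as higher and 76 as lower. In the domains 29 calls are shared with those above in the same direction. For chr9:21470393-21480546 the authors' deposited table has a log2 fold change of 0.55, smaller than the 0.84 fitted here, and an adjusted p of 1e-09. For chr5:143685087-143695694 the authors' deposited table has 0.22 and an adjusted p of 0.141, so this domain is called here and not there. For H3K4me1 the authors' deposited table gives 4 of 1015 peaks in domains as higher and 13 as lower. Over all 16834 H3K4me1 union peaks it gives 167 as higher and 246 as lower.

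Since the files tie no gene to a domain, mRNA and promoter H3K27ac were read for 2 lists of genes with no link to single domains. Of 20 genes of hepatocyte identity, 8 passed as mRNA (6 rose and 2 fell), where 35.6% of the 12909 genes tested passed. Those that rose include Cebpa, a liver transcription factor (264 ± 28.5 CPM in chow and 424 ± 53.3 CPM on the high-fat diet, SD, n = 3 each, adjusted p = 0.0034), and Ttr, the thyroxine carrier transthyretin (3324 ± 204 and 4988 ± 356 CPM, adjusted p = 0.00949). Those that fell were Tat, tyrosine aminotransferase (2693 ± 199 and 1908 ± 329 CPM, adjusted p = 0.0316), and Nr1h4, the bile acid receptor FXR (164 ± 8.09 and 128 ± 10.9 CPM, adjusted p = 0.0127). No promoter of the 20 passed for H3K27ac, where 0.235% of the 20891 promoters tested did. Without adjustment 3 had p under 0.05, and all 20 log2 fold changes were negative, with a median of −0.19 against −0.00296 over all promoters. The 6 hepatocyte marker genes given above are among these 20. Without chow replicate 1, 2 or 3 the number past the threshold as mRNA was 4, 2 and 2, and without high-fat-diet replicate 2 it was 3. Without H3K27ac high-fat-diet replicate 2, 3 of the promoters passed. Summed mRNA of 12 pancreatic acinar marker genes was 328 to 1965 CPM in chow and 10.9 to 211 CPM on the high-fat diet, and its part in these mRNA results was not tested.

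Of 20 genes for enzymes that add or remove acetyl groups on histones, proteins that bind them, their cofactors and an enzyme that makes acetyl-CoA, 5 passed as mRNA (3 rose and 2 fell), where 35.6% of all genes tested passed. Among those that rose were Hdac7, a class IIa deacetylase (6.65 ± 0.267 and 10.2 ± 1.69 CPM, adjusted p = 0.0129), and Acly, ATP citrate lyase (88.1 ± 4.32 and 117 ± 22.5 CPM, adjusted p = 0.0388). Kat2b, the acetyltransferase PCAF, fell (119 ± 10.6 and 89.0 ± 4.54 CPM, adjusted p = 0.00723), as did Hdac2, a class I deacetylase (22.6 ± 0.759 and 17.8 ± 1.76 CPM, adjusted p = 0.0247). Ep300, which encodes p300, had a log2 fold change of −0.07 and did not pass. Without chow replicate 2 or 3 the number past the threshold as mRNA was 3 and 2, and without high-fat-diet replicate 2 it was 2. None of the 20 promoters passed for H3K27ac, where 0.235% of all promoters tested did, and 3 had an unadjusted p under 0.05. Promoter log2 fold changes were negative in 16 of the 20 here too, with a median of −0.0597 against −0.00296 over all promoters.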

How the data were processed

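The deposited files hold raw counts per H3K27ac and H3K4me1 union peak, per promoter and per gene, on mm9, and the submitters' processing notes name Bowtie 0.12.7, MACS 1.4.0rc2, TopHat 1.4.0, HTSeq, bedtools and DESeq2, with no roles. Per the file headers, peak calling used pooled replicates against IgG with a p-value cutoff of 1e-06 and a false discovery rate cutoff of 10 percent, and each peak has a tag count, a score and a fold enrichment (a ratio). The authors' tables give log2 fold changes, p-values and a mean signal (scaled count), and whether fold changes were shrunken is not stated. Each whole count table was fitted with edgeR 4.0.16 in R 4.3.3 (TMM, filterByExpr, quasi-likelihood test, two-sided, Benjamini-Hochberg, 0.05), with no pairing. All union peaks passed the filter. CPM uses TMM-scaled totals. Overlap means 1 bp or more. DESeq2 1.42.0, other scalings, left-out libraries, other length limits and a replicate term were alternatives. On simulated H3K27ac counts (11235 peaks), 88% of peaks planted at a log2 change of 0.5 passed, 100% at 1, and 5.53% of calls were false. For H3K4me1 (16834 peaks) the shares were 68%, 100% and 2.33%, for promoters (20891) 54%, 86% and 10.3%, and for mRNA (12909 genes) 22%, 92% and 8.06%. Reads carry no molecular identifiers, p-values measure the spread between these libraries, and no batch is named in the labels, so one that goes with diet cannot be separated from it. Domains were named by rule: the 5 widest, the 8 largest increases and decreases past the threshold without overlap of libraries, the 3 densest and the 2 on each side of the length limit. The members, lists and rules were chosen with earlier results of these data known.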

Additional observations from a re-analysis of the deposited data

How the results depend on the processing

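With a length limit of 12000 bp 14 domains rose, and with 8000 bp 10 fell. The domains' share of counts was then 14.7% and 31.4% in chow and 14.8% and 31.8% on the high-fat diet. With scaling from the domains alone, chosen after the data were seen, 20 rose and 5 fell. The median log2 fold change was −0.000172, a value near 0 that this scaling fixes. With 1 library left out, 3 to 51 domains rose and 0 to 6 fell. Over all H3K27ac union peaks 21 to 270 then rose and 23 to 172 fell. In domains, 0 to 55 H3K4me1 peaks rose and 0 to 51 fell. Leaving out 1 library, 2 to 10 hepatocyte identity genes passed as mRNA and 0 to 3 as promoters, and 2 to 7 acetylation genes passed as mRNA. With peaks limited to a false discovery rate of 1%, chow peaks overlapped 8 domains and high-fat-diet peaks 9. Deviations of same-numbered H3K27ac libraries from their diet means, over all union peaks, correlated at 0.02, −0.13 and 0.09. With so few libraries per diet this cannot settle whether the numbers pair them. With the replicate block 29 domains rose and 3 fell, 4 H3K4me1 peaks rose and 7 fell, and 2 hepatocyte identity promoters passed. Named domains past the threshold kept their direction in all 143 alternative values, and 25 of those no longer passed. These domains were chosen for libraries that did not overlap between diets. Their kept direction is thus largely fixed by that choice and is no support for the calls. Small uncalled log2 fold changes changed sign: chr14:32204481-32243216 to −0.0060 with scaling from the domains, and, with 1 library left out, chr2:167658302-167695951 (−0.0774 to 0.0104), chr14:69876669-69904662 (−0.0442 to 0.0037), chr15:78294713-78304713 (−0.135 to 0.0043) and chr11:121372562-121382557 (−0.066 to 0.0298). The cause was not tested. DESeq2 called 30 domains higher and 3 lower. With 3 libraries per diet and log2 changes mostly below 0.5, smaller differences may not have been detectable.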
